A study of Mus musculus with 6 samples.

Results

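Yap1 and Wwtr1 (which encodes TAZ), the 4 TEAD genes and 4 genes known as their targets were followed in a mouse NPC line, a culture of neural progenitors, which give rise to neurons and glia. The 10 genes were taken by symbol from a table of 42365 genes, where Cyr61 is listed as Ccn1 and Ctgf as Ccn2, and all 10 were found. RNA sequencing covered 6 libraries of that line. Of these, 2 were parental with the genotype label WT, and their titles number them as clones. Another 2 came from knockout clone 1 and 2 from knockout clone 2, with the genotype label KO. The labels name no treatment. Each knockout group is thus a single clone, and nothing in the labels says whether its libraries were grown apart. Where single libraries are the replicates, p-values cover only their spread, which can be technical.

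YAP and TAZ are coactivators without a DNA-binding domain of their own. In the Hippo pathway, the kinases MST and LATS phosphorylate them, which holds them in the cytoplasm, and when this brake is off they enter the nucleus and bind TEAD factors on DNA. TEAD factors recognise a short motif, and Cyr61, Ctgf, Ankrd1 and Amotl2 are among the targets most often used to read the activity of the pathway. In the nervous system YAP and TAZ are known for their part in the growth of progenitors and in glial cells.

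The promoter windows of these genes are shown first, searched for the letters of the TEAD motif. Sites outside these windows were not searched. RefSeq promoter windows (GRCm38.p6) were found for 7 of the 10 genes (Yap1, Wwtr1, Tead2, Tead3, Cyr61, Ankrd1, Amotl2), and not for Tead1, Tead4 and Ctgf. In each, the 250 bases before the annotated start were searched on both strands for the core TEAD letters GGAATG, which read CATTCC on the other strand. The letters stood in at least 1 window of 6 of the 7 genes, all but Tead2. Among 27025 genes with such windows, 14.4% held them. The AP-1 letters TGANTCA and the CArG box, the site of serum response factor, were searched in the same way. They were in 0 of the 7 genes, against 7.82% and 1.62% of all genes. At shares this low, an absence from 7 genes does not set them apart. A match is a description of the letters and not evidence of a bound site. The windows of Yap1 (chr9:8004597-8004846), Wwtr1 (chr3:57575911-57576160) and Cyr61 (chr3:145649986-145650235) lie outside the annotated exons of the gene itself. Exons of other genes were not checked in any window. All 3 genes are on the minus strand, and the sequences are printed 5′ to 3′ on the gene's strand with the TEAD letters in capitals:
Yap1: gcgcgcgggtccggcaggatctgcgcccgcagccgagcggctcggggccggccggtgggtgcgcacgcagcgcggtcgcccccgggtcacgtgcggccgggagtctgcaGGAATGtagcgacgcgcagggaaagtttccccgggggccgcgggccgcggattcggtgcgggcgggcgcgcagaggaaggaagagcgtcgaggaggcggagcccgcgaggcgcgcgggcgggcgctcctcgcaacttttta
Wwtr1: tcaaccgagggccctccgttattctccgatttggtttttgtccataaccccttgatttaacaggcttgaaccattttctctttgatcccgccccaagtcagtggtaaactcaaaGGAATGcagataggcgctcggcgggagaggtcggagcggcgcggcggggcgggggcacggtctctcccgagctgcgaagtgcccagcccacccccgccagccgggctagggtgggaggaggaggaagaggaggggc
Cyr61: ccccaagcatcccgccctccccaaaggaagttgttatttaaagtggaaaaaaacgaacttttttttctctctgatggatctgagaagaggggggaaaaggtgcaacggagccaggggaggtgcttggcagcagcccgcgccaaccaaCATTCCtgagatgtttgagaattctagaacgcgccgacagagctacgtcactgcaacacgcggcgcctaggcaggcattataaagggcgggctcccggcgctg
For the other genes the stretch of 30 bases around each match in the first listed window is shown. Tead3 has 2 more matches, on the other strand 123 and 114 bases before its second listed start, in a window with 217 of 250 bases in exons. It lies at chr17:28350970-28350999 (minus strand) for Tead3, at chr19:36120037-36120066 and chr19:36119950-36119979 (minus strand) for Ankrd1, and at chr9:102717727-102717756 (plus strand) for Amotl2. GENCODE places a transcript start further upstream for Ankrd1 and Amotl2, so that 250 of the 250 bases of the Ankrd1 window and 136 of those of the Amotl2 window are in exons of some transcript.
Tead3: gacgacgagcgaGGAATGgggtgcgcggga
Ankrd1, upstream match: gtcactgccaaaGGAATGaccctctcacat
Ankrd1, downstream match: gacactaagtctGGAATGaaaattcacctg
Amotl2: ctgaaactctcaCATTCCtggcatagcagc

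**Figure D1:**
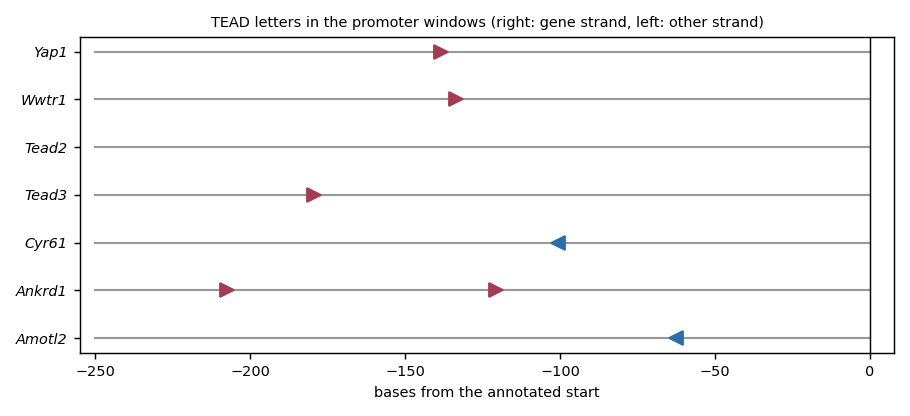
Position of the TEAD letters GGAATG in the 250 bases before the first listed RefSeq start of 7 genes, in bases from the start. Triangles pointing right are matches on the gene's strand and those pointing left on the other strand; in these windows Ankrd1 holds 2 and Tead2 none.

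In the first listed window of each gene, the matches began 141 bases before the start in Yap1, 136 in Wwtr1, 182 in Tead3, 103 in Cyr61, 210 and 123 in Ankrd1 and 65 in Amotl2. In Yap1, Wwtr1, Tead3 and Ankrd1 the letters read GGAATG on the gene's strand, and in Cyr61 and Amotl2 CATTCC. Of the gene lists described below, the letters were in 3 of 12 genes with a window for the conserved YAP target signature, 5 of 9 for partners of YAP, TAZ or TEAD, 3 of 14 for Hippo kinases and scaffolds, 6 of 16 for genes of serum response factor and 0 of 1 for other CCN genes.

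Libraries held 58871554 to 69530032 counts. Levels are CPM (counts relative to the library's total, scaled by edgeR's TMM method), and in each list of 6 values the 2 parental libraries come first, then clone 1, then clone 2. The labelled knockout clones were compared with parental cells by edgeR's quasi-likelihood test with Benjamini-Hochberg adjustment. The libraries of each knockout clone were added, so that the 2 clones were the replicates of the labelled knockout. The 2 parental libraries stayed single, so this test pools the spread between clones with that between parental libraries. A fit of the 6 single libraries compared each clone with parental cells, and these comparisons share the parental libraries. A call means an adjusted p under 0.05, and ± after a log2 fold change is its standard error (SE). Neural progenitor markers were present in each library, with Sox2 at 304 to 363 CPM. Of 6 progenitor markers, Nes and Fabp7 rose and Msi1 fell with the clones as replicates. Their sum was 2889 and 2899 CPM in parental cells, 2475 and 2489 in clone 1 and 3063 and 3075 in clone 2, most of it Vim. Of 5 neuron markers Tubb3 fell and 4 did not pass, with a median log2 fold change of -2.01 (Tubb3 -2.13 ± 0.16, adjusted p = 0.000998). Their sum of 990 to 997 CPM in parental cells, 1339 to 1493 in clone 1 and 1030.0 to 1053 in clone 2 was nearly all Map2, with group means of 975, 1403 and 1035. Of 6 astrocyte markers, 4 fell and 1 rose with the clones as replicates. Their summed level was 5494 and 5535 CPM in parental and 1161 to 1222 CPM in labelled knockout libraries. In group means of parental cells, clone 1 and clone 2, Gfap was at 2691, 1.586 and 9.704 CPM. Gja1 was at 431.7, 0.5556 and 1.096, and Aqp4 at 741.9, 25.17 and 28.7. Most of the labelled knockout sum was Slc1a3, which was at 1579, 1062 and 1078. Markers of mesenchymal or mural cells (7 genes) summed to 1.59 to 4.70 CPM, of endothelial cells (5) to 1.07 to 3.79 and of microglia (5) to 0.951 to 1.96. No marker was at 0 in all libraries. The part of the astrocyte, progenitor and neuron marker differences in the results below was not tested. In bulk RNA, fewer cells of a type and less RNA per cell cannot be told apart.

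Of the 10 genes, 9 passed the filter on low counts, and Ankrd1 did not. With the clones as replicates, 1 rose (Tead2) and 2 fell (Tead4 and Amotl2), while 26.7% of 24506 genes were called, 13% higher and 13.6% lower. The median log2 fold change was -0.27 for the 9 genes and 0.03 for all genes. Against parental cells, clone 1 had 4 of the 9 higher and 3 lower (54.5% of 23400 genes called, 27.3% higher and 27.2% lower). Clone 2 had 2 higher and 5 lower (53.5% called, 26.7% higher and 26.8% lower). Between the clones, 1 of the 9 was higher in clone 2 and 5 were lower, while 36.4% of genes were called, 16.1% higher and 20.3% lower. The share of all genes whose groups do not overlap was not counted. A lack of overlap below thus describes a gene and does not set it apart.

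**Figure D2:**
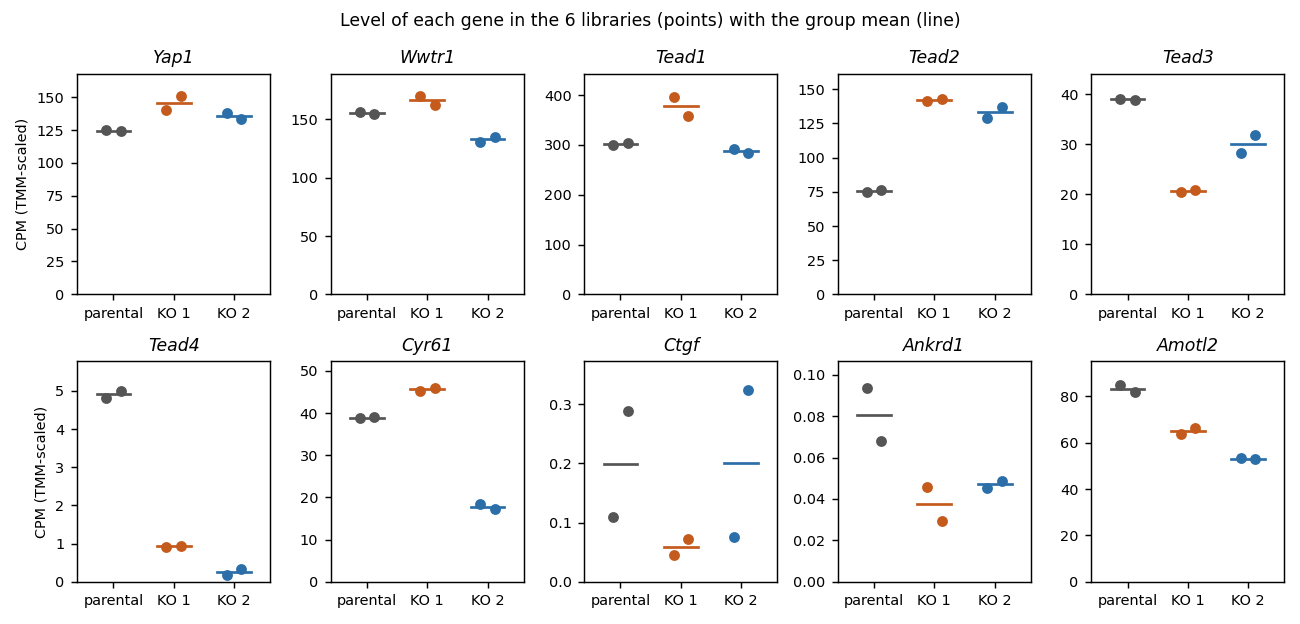
TMM-scaled CPM of the 10 genes (vertical axes, each from 0 and on its own scale) in parental cells and labelled knockout (KO) clones 1 and 2. Points are libraries and lines are means of 2. Yap1 and Tead2 are higher and Tead3, Tead4 and Amotl2 are lower in each labelled knockout library than in either parental one. Cyr61 is higher in clone 1 and lower in clone 2.

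The coactivator genes moved little. Yap1 (chr9:7931999-8004596, 12 merged exons) was at 125, 124, 140.4, 151, 138 and 134 CPM. All 4 labelled knockout libraries lay above both parental ones, and both clone 1 libraries lay above both of clone 2. Over the 2 clones the log2 fold change was 0.21 ± 0.08 (adjusted p = 0.13, edgeR), with a 95% interval from -0.003 to 0.42. Against parental cells alone, Yap1 rose 1.17-fold in clone 1 (adjusted p = 0.000584) and 1.09-fold in clone 2 (adjusted p = 0.032). The clone 2 call was lost under 7 of 12 alternatives, among them leaving out either parental library (adjusted p = 0.106 and 0.161) or clone 2 library 1 (0.0775). The clones did not pass against each other (-0.10, adjusted p = 0.107), except without clone 1 library 1 (-0.13, adjusted p = 0.0108).

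Wwtr1 (chr3:57455649-57575910) stood at 156, 155, 169.7, 163, 130.4 and 135 CPM. Clone 1 lay above and clone 2 below the parental libraries. The change with the clones as replicates was -0.03 ± 0.12 (adjusted p = 0.895), with an interval from -0.34 to 0.28, and without a filter on low counts it was 0.07. In clone 2 Wwtr1 fell 1.17-fold (adjusted p = 0.000299). In clone 1 it did not pass (0.10 ± 0.04, adjusted p = 0.0751; 0.0097 without the filter and 0.003 without clone 1 library 2). The difference between the clones passed in its own test (-0.32 ± 0.04, adjusted p = 2.14e-05).

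To compare levels between genes, CPM were divided by the length of all exons in kilobases. Per kilobase, Wwtr1 was the higher of the 2 coactivator genes in each library, at 27.3 to 35.5, against 13.4 to 16.3 for Yap1. Parental cells had a Yap1 to Wwtr1 ratio of 0.414 and 0.413. It was 0.427 and 0.479 in clone 1, and 0.547 and 0.511 in clone 2. The groups did not overlap in this ratio, which was not tested.

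The TEAD genes, which encode the DNA-binding partners, changed unequally. Tead2, the family member known for its expression in early neural tissue, rose 1.86-fold while Tead4 fell 8.06-fold. Tead1 (chr7:112679318-112906807) was at 299.9, 303, 396, 358, 292 and 283 CPM. It rose 1.25-fold in clone 1 (adjusted p = 2.26e-05) and did not pass in clone 2 (-0.07 ± 0.05, adjusted p = 0.248). Its change with the clones as replicates was 0.17 ± 0.14 (adjusted p = 0.416, 95% interval -0.18 to 0.52), and the clones differed from each other (-0.39 ± 0.05, adjusted p = 8.22e-06).

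Tead2 (chr7:45215753-45233644) was at 74.75, 76.2, 141, 143, 129 and 137 CPM. Each labelled knockout library lay above both parental ones by more than the spread within any group. Over the 2 clones the log2 fold change was 0.90 ± 0.08 (adjusted p = 0.00182, edgeR). The call held under all 14 alternatives run for that comparison, with adjusted p up to 0.0389. Clone 1 was 1.88-fold and clone 2 1.77-fold above parental cells, and the clones did not pass the test against each other (-0.09 ± 0.05, adjusted p = 0.121, 95% interval -0.19 to 0.002).

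Tead3 (chr17:28331671-28350817) was at 39.1, 38.8, 20.4, 20.8, 28.35 and 31.8 CPM. It was lower in the 4 labelled knockout libraries, with clone 1 the lowest. It did not pass with the clones as replicates (-0.59 ± 0.20, adjusted p = 0.0828), but it did without clone 2 library 2 (adjusted p = 0.0432). In each clone alone it fell, 1.89-fold in clone 1 (adjusted p = 3.96e-09) and 1.3-fold in clone 2 (adjusted p = 0.000128). The clones differed by 0.55 ± 0.07 (adjusted p = 8.27e-06).

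Tead4 (chr6:128224288-128300823), known for its role in the trophectoderm of the early embryo, was the TEAD gene of lowest level. It was at 4.82, 5.005, 0.915, 0.947, 0.181 and 0.341 CPM, from 309 and 295 counts in parental libraries to 12 and 21 in clone 2. The 3 groups did not overlap. The fall with the clones as replicates was -3.01 ± 0.58 on the log2 scale (adjusted p = 0.0197). The call was lost without parental library 1 or 2, where the estimate was -3.03 and -2.99. Those fits keep 1 parental library and have fewer residual degrees of freedom. On the log2 scale the change was -2.40 ± 0.19 in clone 1 (adjusted p = 1.11e-08) and -4.24 ± 0.23 in clone 2 (adjusted p = 1.17e-10). The difference of the clones was -1.84 ± 0.28 (adjusted p = 8.33e-05).

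**Figure D3:**
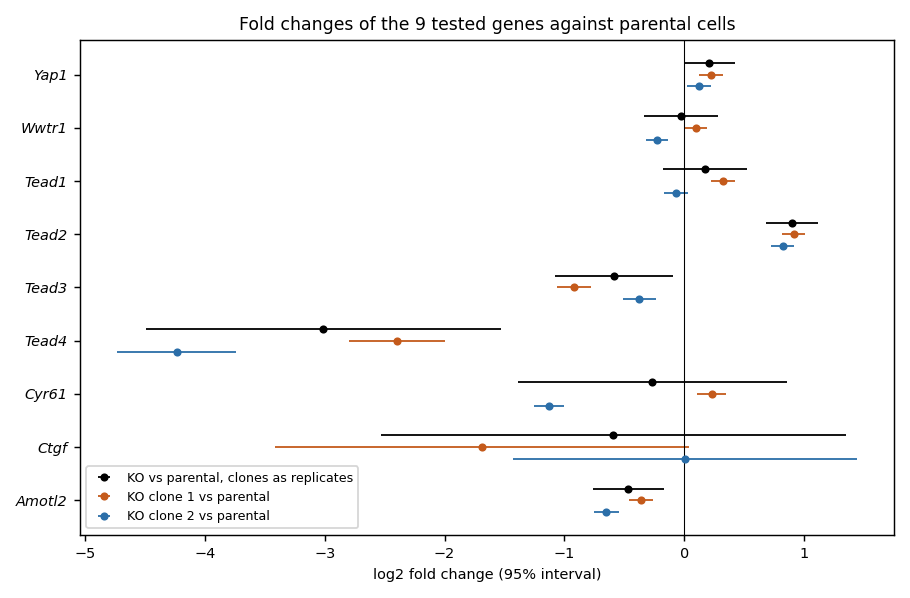
Log2 fold changes against parental cells (horizontal axis) of the 9 tested genes. Points are estimates and bars their 95% intervals, black with the clones as replicates, orange for clone 1 and blue for clone 2; the Tead2 intervals lie above 0 and those of Tead3, Tead4 and Amotl2 below 0 in all 3 comparisons.

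Together these changes shifted the makeup of the TEAD transcripts. Summed per kilobase, the 4 genes stood at 44.9 and 45.4 in parental cells. The sum was 62.0 and 59.6 for clone 1, then 52.8 and 54.4 for clone 2. Tead1 held 49.25% and 49.17% of this sum in parental cells, then 47.1% and 44.25% (clone 1) and 40.8% and 38.35% (clone 2). Tead2 went from 34.8% and 35.0% in parental libraries to between 47.6% and 52.8% in the labelled knockout libraries. Per kilobase it was thus below Tead1 in both parental libraries and above it in the 4 others, where the Tead1 to Tead2 ratio was 0.727 to 0.990. In CPM, without division by length, Tead1 was above Tead2 in all 6 libraries. Tead3 had 12.7% to 13.0% in parental, 4.91% to 5.19% in clone 1 and 8.0% to 8.71% in clone 2. Tead4 held 2.98% and 3.06% in parental cells and 0.0954% to 0.441% in labelled knockout libraries. These shares depend on the annotated exon lengths (13570 bases for Tead1, 4788 for Tead2, 6714 for Tead3 and 3598 for Tead4), while their change between libraries does not rest on a test of its own.

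**Figure D4:**
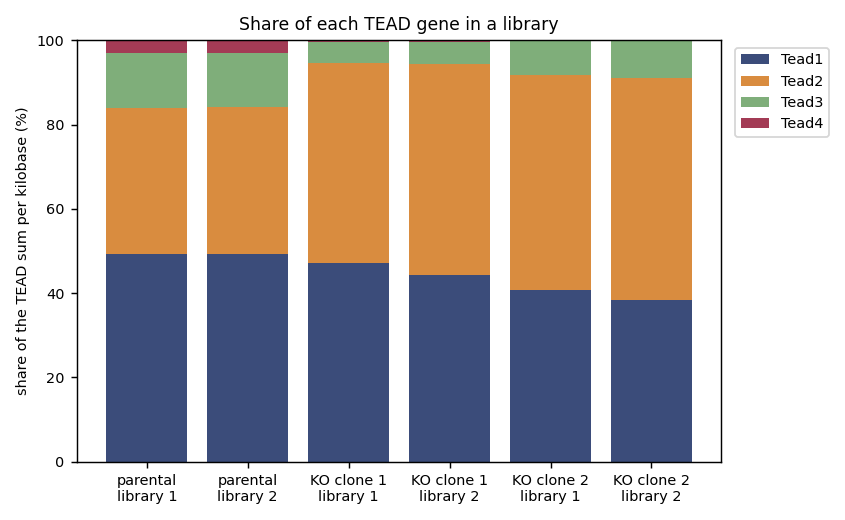
Share of Tead1, Tead2, Tead3 and Tead4 in their summed level per kilobase of exon (vertical axis, %) in the 6 libraries (bars). Tead2 makes up 34.8% and 35.0% in the parental libraries and 47.6% to 52.8% in the labelled knockout ones.

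The 4 target genes did not move as 1 group. Cyr61 (chr3:145646976-145649981), which encodes a secreted matrix protein of the CCN family, was at 38.8, 39.1, 45.2, 46.1, 18.4 and 17.2 CPM. Clone 1 lay above and clone 2 below the parental libraries, with no overlap. It rose 1.17-fold in clone 1 (adjusted p = 0.00284) and fell 2.19-fold in clone 2 (adjusted p = 7.34e-11). The clones differed by -1.36 ± 0.06 (adjusted p = 5.37e-11), and this difference passed under all 12 alternatives run for it. The change with the clones as replicates was -0.27 ± 0.43 (adjusted p = 0.691), and its 95% interval from -1.39 to 0.86 spans both clones.

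Amotl2 (chr9:102716672-102733418), which encodes an angiomotin family scaffold that binds YAP, was at 84.85, 81.9, 63.7, 66.2, 53.4 and 52.9 CPM. The 3 groups were ordered without overlap, parental highest and clone 2 lowest. Its fall with the clones as replicates was -0.47 ± 0.12 in log2 (adjusted p = 0.0406). That call was lost without a filter on low counts (adjusted p = 0.0687). It was also lost without parental library 1 (-0.43) or 2 (-0.49), which leaves 1 parental library and fewer residual degrees of freedom. In clone 1 it fell 1.28-fold (adjusted p = 5.97e-06) and in clone 2 1.57-fold (adjusted p = 5.14e-09), and the clones differed (-0.29 ± 0.05, adjusted p = 0.000164).

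Ctgf and Ankrd1 were barely counted. Ctgf (chr10:24595442-24598683), a secreted CCN protein gene, had 7, 17, 3, 5, 5 and 20 counts. Clone 2 spanned the parental libraries, clone 1 lay below them, and no comparison passed (95% interval -2.53 to 1.35 on the log2 scale with the clones as replicates, adjusted p = 0.612). Without clone 2 library 1, clone 2 was called above clone 1 (2.43, adjusted p = 0.0367). Of its exon bases, 665 (23.2%) are shared with Gm15270 on the opposite strand, and without a stated strand setting reads of the 2 cannot be told apart. Ankrd1 (chr19:36111961-36120099), which encodes an ankyrin repeat protein best known from stressed heart muscle, had 6, 4, 3, 2, 3 and 3 counts and was not tested. At this depth 3 counts correspond to 0.0437 to 0.0509 CPM, so no difference in Ankrd1 was detectable.

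Per kilobase, Cyr61 was the target gene of highest level in parental cells at 19.2 and 19.4, followed by Amotl2 at 13.5 and 13.0. Ctgf was at 0.0381 and 0.101 and Ankrd1 at 0.0324 and 0.0235. Amotl2 and Yap1 (13.5 and 13.4) overlapped in the parental libraries. In clone 2 Cyr61 and Amotl2 came close, at 9.11 and 8.52 against 8.50 and 8.41.

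Other targets come from a published conserved YAP signature, here its 18 genes outside the 10. With the clones as replicates 4 rose, 8 fell and 6 did not pass, with a median log2 fold change of -0.67. Over all genes 26.7% were called in that comparison, 13% higher and 13.6% lower. Igfbp3, which encodes a binding protein of insulin-like growth factors, was at 8.08, 8.28, 447, 424, 254 and 252 CPM (5.43 ± 0.30, adjusted p = 0.000532, edgeR). Rbms3, an RNA-binding protein gene, rose by 2.13 ± 0.11 (adjusted p = 0.000373), and Crim1 and Fjx1 also rose. Arhgef17, a guanine nucleotide exchange factor gene, went the other way, from 18.5 and 16.7 CPM to between 0.137 and 0.242 in labelled knockout libraries (-6.57 ± 0.24, adjusted p = 0.000217). The forkhead factor gene Foxf2 fell by 4.30 (SE 0.26) on the log2 scale from a low level of 1.87 and 2.02 CPM, and the stress gene Gadd45a by 1.53 (SE 0.15). Lats2, Asap1, Axl, Ccdc80 and Tgfb2 fell as well. In clone 1 alone 6 rose and 11 fell, and in clone 2 7 rose and 10 fell, beside 54.5% and 53.5% of all genes called. F3, the tissue factor gene, fell in clone 1 and rose in clone 2 (-0.32 ± 0.07 and 0.59 ± 0.07). F3, Crim1, Fjx1, Lats2, Asap1, Axl, Ccdc80 and Tgfb2 were named after their values were seen. Apart from Lats2, how they fared under the alternatives was not examined.

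**Figure D5:**
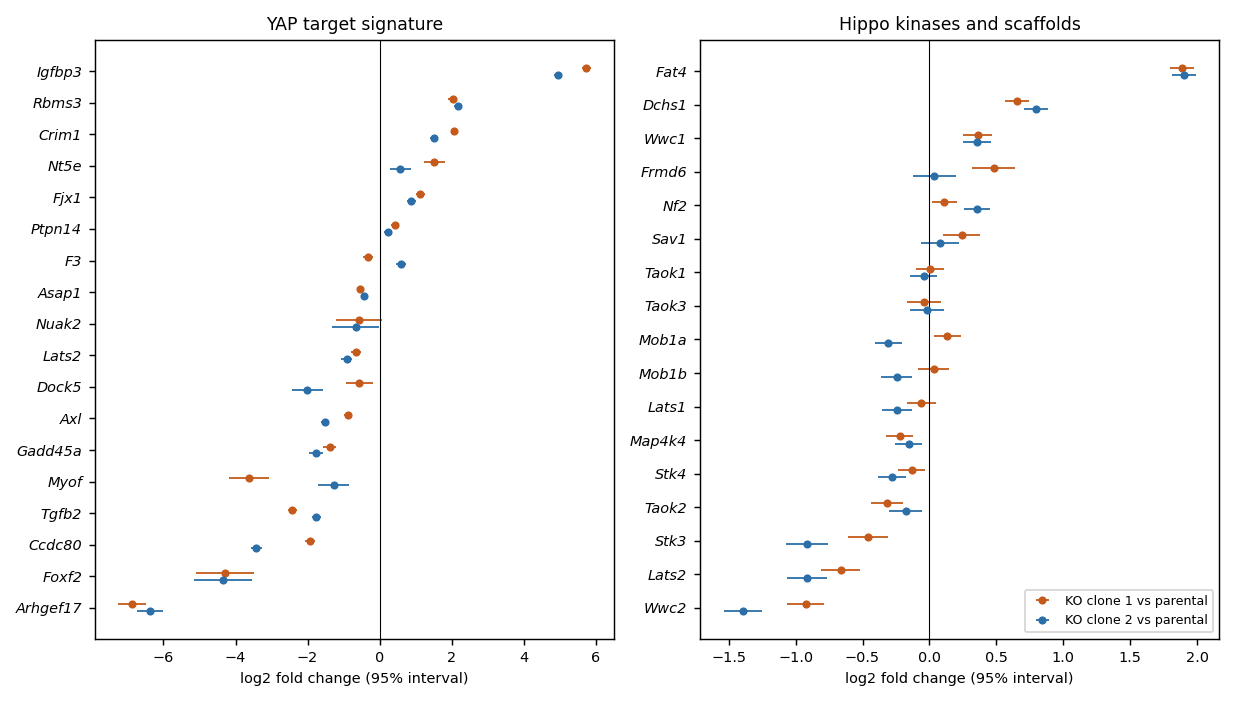
Log2 fold changes against parental cells (horizontal axes) of the 18 genes of a YAP target signature (left) and 17 Hippo kinase and scaffold genes (right), in clone 1 (orange) and clone 2 (blue) with 95% intervals. The signature spreads on both sides of 0, from Arhgef17 to Igfbp3, and Fat4 stands highest among the Hippo genes.

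Upstream of YAP and TAZ, of 17 Hippo kinases and scaffolds 3 rose, 3 fell and 11 did not pass with the clones as replicates (median log2 fold change -0.04), where 26.7% of all genes were called. The largest change was in Fat4, an atypical cadherin known as an input to the pathway. It was at 107, 108, 403, 394, 404 and 402 CPM, rose 3.80-fold and had nearly the same level in both clones (1.93 ± 0.08, adjusted p = 0.000274). Its ligand gene Dchs1 rose by 0.76 ± 0.10 (adjusted p = 0.00481) and Wwc1, which encodes the scaffold KIBRA, by 0.39 ± 0.08 (adjusted p = 0.0246). Wwc2, a relative of Wwc1, fell (-1.11 ± 0.17, adjusted p = 0.00939). The kinase genes Lats2 and Stk3 fell by 0.75 (SE 0.13, adjusted p = 0.0121) and by 0.64 (SE 0.16, adjusted p = 0.0386). Lats2 is the same gene that fell in the YAP target signature and is counted in both lists. Lats1, the other LATS gene, was at 151.5, 155, 156, 138, 128 and 131 CPM and did not pass (-0.12 ± 0.09, adjusted p = 0.41). Stk3 and Lats1 were named after their values were seen, and how they fared under the alternatives was not examined. Dchs1, Wwc1 and Lats2 were not called when either parental library was left out, which leaves 1 parental library. Wwc1 was also not called without clone 1 library 2 (adjusted p = 0.0586).

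Among 13 partners that hold YAP or TAZ or occupy TEAD, 3 rose, 2 fell and 8 did not pass (median log2 fold change 0.03), again beside 26.7% of all genes. Amotl1, the paralog of Amotl2, moved opposite to it, from 160.1 and 163 CPM to 387, 381, 371 and 371 (1.26 ± 0.08, adjusted p = 0.000666). Amot, the founding gene of that family, was at 84.3, 83.8, 82.2, 75.8, 80.7 and 82.0 CPM and did not pass (-0.04 ± 0.08, adjusted p = 0.784; named after its values were seen). Limd1, which encodes a LIM protein that restrains LATS, rose by 1.06 ± 0.09 (adjusted p = 0.00119). Vgll4, whose product competes with YAP for TEAD, rose by 0.54 ± 0.08 (adjusted p = 0.00887). Ywhaz, a 14-3-3 gene, fell (-0.71 ± 0.09, adjusted p = 0.00559). Vgll2, a TEAD cofactor gene, had 44 and 31 counts in parental libraries and 3, 0, 6 and 0 in the others, and it also fell (adjusted p = 0.00394). Vgll4 and Ywhaz were not called when either parental library was left out, which leaves 1 parental library.

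The genes closest in pattern were sought among 10506 genes of at least 5 CPM, by the Euclidean distance of centred log2 CPM over the 6 libraries. For Yap1 they were Sephs2 (distance 0.0388), Soga1 (0.0422) and Clns1a (0.0651). For Wwtr1 they were Gsr (0.0313), Psenen (0.0459) and Tmed2 (0.0521). Tead2 was closest to Prex1 (0.0578), Abraxas1 (0.0717) and Bzw2 (0.0872). By this distance Cyr61 had no neighbour as close, with Chn1 at 0.213, Lrp11 at 0.217 and Gm13710 at 0.277. For Ctgf the nearest, Tomm40l, stood at 1.39. The distance also depends on the size of a gene's change, while the Pearson correlation does not. The correlations of the Cyr61 neighbours were 0.991, 0.995 and 0.987, and those for Yap1 0.988, 0.987 and 0.962. They were 0.996, 0.995 and 0.988 for Wwtr1, 0.998, 0.999 and 0.997 for Tead2, and 0.803 for Ctgf with Tomm40l.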

How the data were processed

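RNA was sequenced from 6 NPC libraries, with 3 groups taken from the titles. Per the submitters' processing notes, STAR and featureCounts were used, with GRCm38.p6 and mm10 named as builds. The authors deposited whole-number counts per gene, not normalized. The labels and notes do not say whether counting used strand or multiply mapped reads, or which of the 2 kits in the labels' protocols made each library.

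Tests used edgeR 4.0.16 under R 4.3.3 (filterByExpr with a minimum count of 10, TMM, robust quasi-likelihood test, Benjamini-Hochberg adjustment over all genes tested). For labelled knockout against parental, the libraries of each knockout clone were added and the 2 parental libraries kept single. This gave 4 columns and 2 residual degrees of freedom. The 3-group fit of 6 libraries has 3. The SE is the log2 fold change over the square root of F. Alternatives used DESeq2 1.42.0 and limma 3.58.1, other scalings and filters, other replicate units and leaving out each library. The fits were run on simulated counts in which both clones had the same changes, so their handling of differences between clones was not checked. Exon lengths and gene coordinates came from GENCODE M21 (GRCm38), where the Tead1 model is an earlier version than the one counted. Promoter windows came from RefSeq (GRCm38.p6), without their transcribed bases. Per gene in a group, the chi-square between libraries was 3.78, 24.8 and 5.33 for parental, clone 1 and clone 2, more than counting error alone gives. It does not tell technical repeats from separate cultures. The spread was largest in clone 1, while the 3-group fit shares 1 estimate of the spread over the groups. Reads are not independent molecules, so limits from counts cover counting error only.

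The members and lists were chosen with earlier results of these data known. Lats2 stands in both the signature and the Hippo list. Ptpn14, mentioned for this only, stands in both the signature and the partner list. Each is counted in both. Named were all 10 genes, up to 5 genes of each list with the smallest adjusted p with the clones as replicates, the 3 nearest in pattern for 5 of the 10, and genes said to be named after their values were seen. The targeted gene is not reported here, so the genotype is that of the labels and the clones are called labelled knockout.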

Additional observations from a re-analysis of the deposited data

Results flagged for a closer look

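The effects of the 2 clones against parental cells differed for 6 of the 9 tested genes, by the contrast of the clones (edgeR's quasi-likelihood test with Benjamini-Hochberg adjustment), where 36.4% of all 23400 genes were called. As clone 2 minus clone 1 on the log2 scale, the difference was -1.84 for Tead4, -1.36 for Cyr61, -0.39 for Tead1, -0.32 for Wwtr1, -0.29 for Amotl2 and 0.55 for Tead3. In Cyr61, Tead1 and Wwtr1 the clones lay on opposite sides of the parental libraries. Of these 3, only Cyr61 was called against parental cells in both clones. Tead1 did not pass in clone 2 (-0.07), nor Wwtr1 in clone 1 (0.10). In Tead3, Tead4 and Amotl2 both clones were below the parental libraries and differed in how far. With 1 clone in each group, a difference between clones cannot be told apart from a difference between their cultures.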

How the results depend on the processing

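In the comparison with clones as replicates 3 of the 10 genes were called, and with each library left out in turn 1 to 4. Without parental library 1 or 2 only Tead2 was called. Leaving out a parental library leaves 1 parental library and fewer residual degrees of freedom, while leaving out a clone library keeps all 4 columns. When libraries instead of clones were the replicates, 7 were called, and 7 also with the replicate block added. Over all genes that comparison gave 6532 calls, 2544 and 2529 without parental library 1 or 2, 3788 among genes of at least 5 CPM, 13213 with libraries as replicates and 13140 with the replicate block. The 5 CPM filter, which tests fewer genes, gave 8014 in place of 12752 calls for clone 1 and 7845 in place of 12520 for clone 2. Tead3, which missed the threshold with the clones as replicates, passed with DESeq2 (adjusted p = 0.0213), with limma-voom (0.0201), with libraries as replicates and without clone 2 library 2 (0.0432).

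Signs changed only in genes that were not called in that comparison under any setting run. With the clones as replicates these were Wwtr1 without a filter (0.067), Ctgf (-1.13 to 0.25 over the left-out libraries, the high end without parental library 2) and Wisp1 (-0.58 to 0.066, likewise). In clone 2, Ctgf (0.0063) turned to -0.012 with DESeq2 size factors, -0.0088 with upper quartile scaling, -0.0101 with the DESeq2 test and -0.059 with the replicate block. Leaving out libraries gave -1.32 to 0.85, below 0 without parental library 1 (-0.53) or clone 2 library 2. The causes were not tested. The labels do not say that a replicate number marks a shared batch. Deviations of same-numbered libraries from their group means correlated at -0.222, -0.0457 and 0.217 between groups across 11021 genes, so the numbers were not taken to pair libraries. The replicate block changed no call of the 10 genes within the fit of single libraries.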

Other observations

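Genes of serum response factor (SRF) and its coactivators, which share targets with YAP and TEAD, were compared together with their targets. Of these 18 genes, 2 rose (Srf and Mkl2), 5 fell and 11 did not pass with the clones as replicates. The 2 that rose encode SRF and a coactivator, and the 5 that fell are targets. Mkl1, the other coactivator gene, did not pass (-0.11 ± 0.14, adjusted p = 0.606). Not all targets went down. In clone 1 alone 7 of the 18 rose and 7 fell, and in clone 2 5 rose and 10 fell. This stands beside 54.5% and 53.5% of all genes called. Thbs1, Tpm1 and Tpm4 were called higher in each clone alone. With the clones as replicates the median log2 fold change was -0.32, beside 0.03 for all genes, of which 26.7% were called. Flna, the gene of the actin crosslinker filamin A, was at 565, 559.9, 351, 385, 265 and 274 CPM (-0.79 ± 0.16, adjusted p = 0.0201, edgeR). Vcl, which encodes the adhesion protein vinculin, fell (-0.89 ± 0.12, adjusted p = 0.00656). Myl9, Tpm2 and Tagln2, genes of contractile filaments, also fell, from levels of at most 2.12 CPM in any library. When either parental library was left out, which leaves 1 parental library, Flna and Tpm2 were not called, nor Tagln2 without parental library 2. Srf was at 27.8, 29.0, 63.2, 63.4, 39.0 and 42.1 CPM and rose by 0.90 ± 0.21 (adjusted p = 0.0331). Mkl2 rose by 0.37 ± 0.10 (adjusted p = 0.0492). Srf, Mkl1, Mkl2, Thbs1, Tpm1 and Tpm4 were named after their values were seen. How they fared under the alternatives was not examined.

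The other CCN genes were near the limit of counting in all libraries. Wisp3 had 18, 5, 38, 52, 41 and 54 counts and was called higher with the clones as replicates (adjusted p = 0.043). It was not called without clone 1 library 2 (0.0696) or clone 2 library 2 (0.0542), nor without parental library 2, which leaves 1 parental library. Nov had 21, 14, 33, 3, 0 and 0 counts, so the libraries of clone 1 differed widely. It was called lower in clone 2 than in parental cells (adjusted p = 0.0142) and than in clone 1 (0.0224), where both clone 2 libraries are at 0. With the clones as replicates it did not pass (adjusted p = 0.602), except without clone 1 library 1 (0.0341) and with libraries as replicates (0.0405, and 0.00472 with the replicate block). Wisp1 and Wisp2 did not pass (adjusted p = 0.603 and 0.203).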
